A study of Mus musculus and Meriones unguiculatus with 4 samples.

Results

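The genes described here are 32 glycolysis and hypoxia response genes, from the glucose transporter Slc2a1 to the hypoxia-inducible factors and their target genes, in the enamel knot of mouse and gerbil teeth. Of these, 24 carry a symbol that occurs once in each species' table, and those 24 were compared between species. All 24 passed the filter on low values. They were set against the 10158 genes kept, out of 13321 matched by symbol. The remaining 8 (Tpi1, Gapdh, Pgam1, Eno1, Ldha, Ldhb, Higd1a and Hif1a) are given from their descriptions where both species have a row. For Hif1a, which has 1 gerbil row and 2 mouse rows of that symbol, the symbol was used instead.

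The study compared the enamel knot region, a signalling centre of the tooth germ epithelium, between mouse and gerbil (Meriones unguiculatus) during tooth development. Mouse samples came from WT embryos at embryonic day 13 and gerbil samples from WT embryos at embryonic day 15, all labelled epithelial cells, with 2 libraries per species. The region was cut by laser microdissection from frozen sections of paraformaldehyde-fixed mandibular tooth germs. The number of animals behind a sample, and any marker used to choose the region, are not given in the sources used here, so the spread between libraries may be technical.

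The mouse libraries are named PEK and SEK and the gerbil libraries E21 and E23 after their columns. The labels do not say what these names stand for, and neither gerbil name matches the labelled embryonic day 15. Should they mark stages or regions, the libraries within a species would not be replicates, and every SD and SE below would include that difference.

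Glycolysis turns glucose into pyruvate in the cytosol and yields ATP without oxygen. Pyruvate is then oxidized in the mitochondria, by pyruvate dehydrogenase, or is reduced to lactate. When oxygen is low, the prolyl hydroxylases of the Egln family stop marking hypoxia-inducible factor alpha subunits for destruction by the Vhl protein. The alpha subunit then pairs with Arnt and activates genes for glucose uptake, glycolysis, blood vessel growth and mitochondrial turnover. The tooth germ epithelium holds no blood vessels of its own and receives oxygen from the vessels of the surrounding mesenchyme.

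A level is the deposited per-length value (FPKM in mouse, TPM in gerbil) rescaled so that each library sums to 1000000 over the matched genes. Differences between species are in log2(level + 1), gerbil minus mouse, with an SE from 2 libraries per species. They are given after removal of a trend with transcript length, for which mouse lengths stood in for both species. Before that step, with libraries only centred on their median, the median difference was -1.79 in the shortest 1016 genes and 1.43 in the longest 1015. A gene is called when the lower library of 1 species exceeds the higher library of the other by 2-fold or more. No significance test was run between the tables, which were normalized separately, and 2 against 2 libraries cannot give a two-sided exact permutation p below 0.333. Several glycolytic enzymes have processed pseudogenes, and how the authors counted reads shared with such copies is not stated.

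Markers of dental epithelium were present in every library: all 7 listed genes were above 0, with summed levels of 6261 in PEK, 7899 in SEK, 9741 in E21 and 8691 in E23. Shh, the signal made by the enamel knot, had levels of 946, 609, 963 and 1186 in the same order. Markers of other tissues varied more. The 5 matched endothelial markers summed to 111, 202, 34.8 and 157, the 6 skeletal muscle markers to 130.2, 442, 4.67 and 13.5, and the 4 red blood cell markers to 144, 26.7, 3.32 and 17.8. The 7 mesenchymal markers summed to 663, 594, 1387 and 2347. The 4 immune markers summed to 1.99, 8.32, 6.64 and 30.4, the 4 nerve markers to 21.5, 46.0, 1.66 and 3.65, and the 6 cartilage and bone markers to 144, 229, 862 and 656. In bulk samples such as these, fewer cells of a type and less RNA per cell cannot be told apart.

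Between species the glycolysis and hypoxia genes did not lean to one side. Of the 24, 3 were called higher in mouse (Hk2, Aldoa and Bnip3l; 12.5%), beside 14.6% of all genes kept. The 3 called higher in gerbil (Pfkm, Pgk1 and Car9; 12.5%) stood beside 13.4% of all genes. Both shares were near their background. Car9 passed the filter on low values only through its gerbil levels. The median difference of the 24 was 0.32, beside -0.01 over all genes, and leaving out SEK moved it to -0.60. The libraries of the 2 species did not overlap for 6 genes higher in mouse and 8 higher in gerbil, beside 37.2% and 36.9% of all genes, and overlapped for 10. With libraries centred only, 3 of the 24 were called higher in mouse and 2 in gerbil, beside 19.4% and 18.4% of all genes, and with levels neither centred nor corrected 2 and 6, beside 11.9% and 29.7%.

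**Figure D1:**
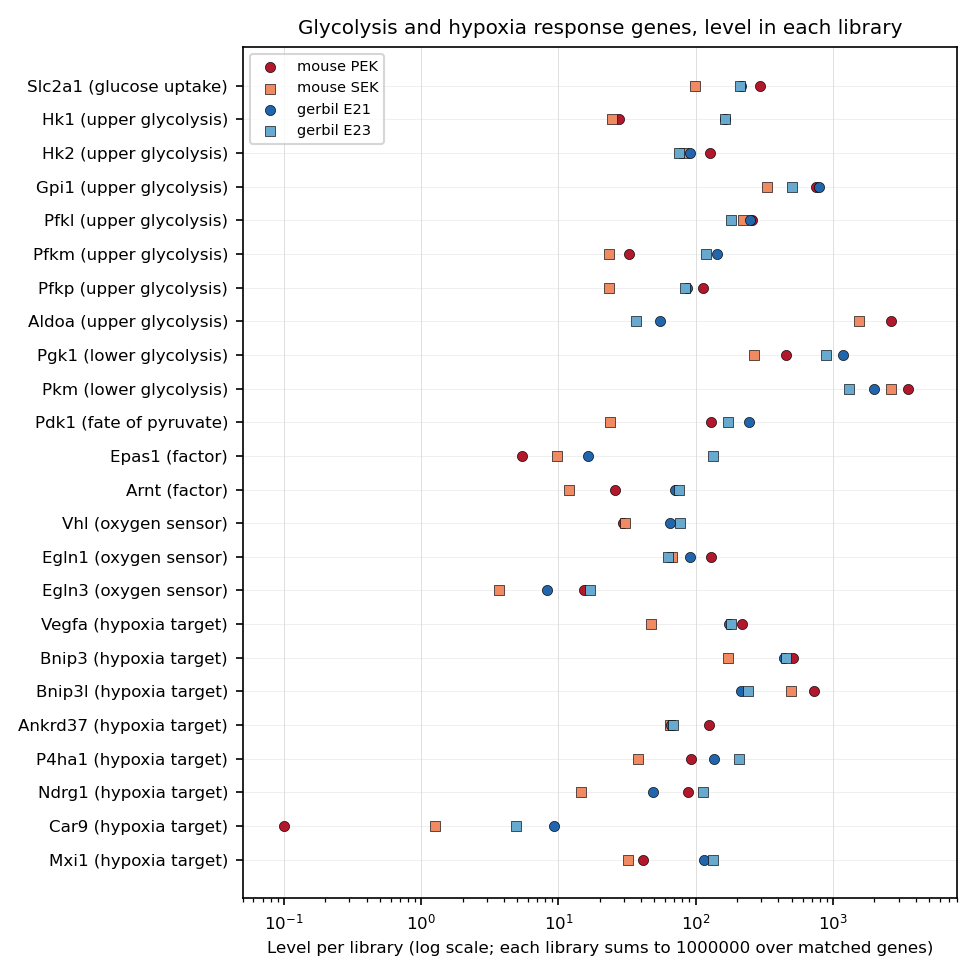
Level of each of the 24 genes in the 4 libraries, on a log axis (each library sums to 1000000 over the matched genes, no length trend removed; red and orange for mouse, blue for gerbil). For Slc2a1, Pfkp, Vegfa and Bnip3 the gerbil points nearly coincide while mouse SEK lies to the left of mouse PEK; for Hk1 and Pfkm both gerbil points lie to the right of both mouse points.

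**Figure D2:**
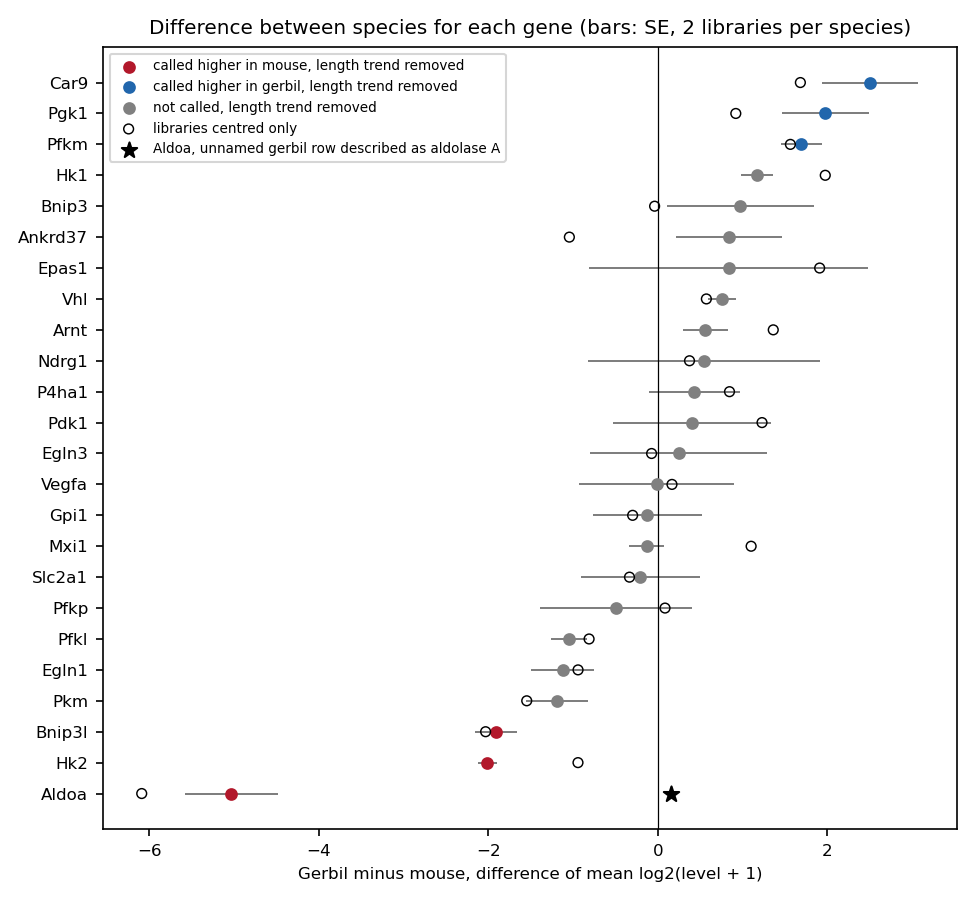
Difference between species for each gene in log2(level + 1), gerbil minus mouse, with the length trend removed (filled points, bars show the SE from 2 libraries per species) and with libraries centred only (open points). Comparing these 2 scales, Hk2, Pgk1 and Car9 are called at the filled point and not at the open one, Hk1 and Pkm at the open point and not at the filled one, and the star shows aldolase A from the gerbil row without a symbol.

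Glucose enters these cells through transporters, of which Slc2a1 is the widespread one. Slc2a1 (mouse GRCm38, chr4:119108711-119137983) had levels of 295 and 98.6 in mouse PEK and SEK and of 212 and 209 in gerbil E21 and E23. The 2 gerbil libraries lay within the range of the 2 mouse libraries, and the difference between species was -0.21 ± 0.71 (SE, n = 2 per species). Slc2a3, the transporter typical of neurons, was low beside it: the ratio of Slc2a3 to Slc2a1 was 0.0442 and 0.0477 in mouse and 0.0103 and 0.0236 in gerbil.

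The hexokinases, which trap glucose in the cell as glucose 6-phosphate, stood in opposite order in the species. Hk1, the form found in most tissues (chr10:62268855-62379908), had levels of 27.7 and 24.4 in mouse, a mean of 26.1 ± 2.35 (SD, n = 2), and 164 and 163 in gerbil, a mean of 164 ± 0.887 (SD, n = 2). Hk2, the inducible form (chr6:82725022-82774522), had levels of 128 and 82.8 in mouse and 90.4 and 75.8 in gerbil, which overlap. Hk2 thus exceeded Hk1 in both mouse libraries, with ratios of 4.60 in PEK and 3.39 in SEK, and lay below it in both gerbil libraries, with ratios of 0.550 in E21 and 0.465 in E23. With the length trend removed the 4 ratios were 4.80, 3.67, 0.514 and 0.420, so the order within each library was the same on both scales.

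The calls of the hexokinases moved with the settings. With the trend removed, Hk2 was called higher in mouse (-2.01 ± 0.11) and Hk1 missed the 2-fold gap (1.16 ± 0.19). With libraries centred only, Hk2 was not called (-0.94) and Hk1 was called higher in gerbil (1.98). Both were called under 5 of the 10 alternatives: no filter, a level of at least 10, a GC trend removed, without SEK and without E21.

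Glucose 6-phosphate isomerase, Gpi1, was among the abundant members, at 757 and 330.3 in mouse and 791 and 504 in gerbil, with overlapping libraries and a difference of -0.13 ± 0.64. Phosphofructokinase, the committing step of glycolysis, has a liver, a muscle and a platelet isozyme. The liver isozyme Pfkl was the most abundant of them in every library, at 257 and 222 in mouse and 247 and 179.9 in gerbil (-1.05 ± 0.21, not called). The muscle isozyme Pfkm (chr15:98092589-98132447) was called higher in gerbil, with levels of 32.7 and 23.3 in mouse and 143 and 119 in gerbil and a difference of 1.69 ± 0.24. Both gerbil libraries lay above both mouse libraries, and the call held with libraries centred only (1.56) and under all 10 alternatives tried.

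Relative to Pfkl, Pfkm stood at 0.128 and 0.105 in mouse and at 0.576 and 0.663 in gerbil, groups that do not overlap. The platelet isozyme Pfkp (chr13:6579768-6648777) instead set 1 mouse library apart. Pfkp had levels of 113 in PEK, 23.2 in SEK, 86.9 in E21 and 84.0 in E23. Its ratio to Pfkl was 0.441, 0.104, 0.351 and 0.467 in the same order. With the length trend removed it was 0.483, 0.128, 0.315 and 0.420, so SEK was the low library on both scales, while PEK lay between the gerbil values on the first and above both on the second.

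**Figure D3:**
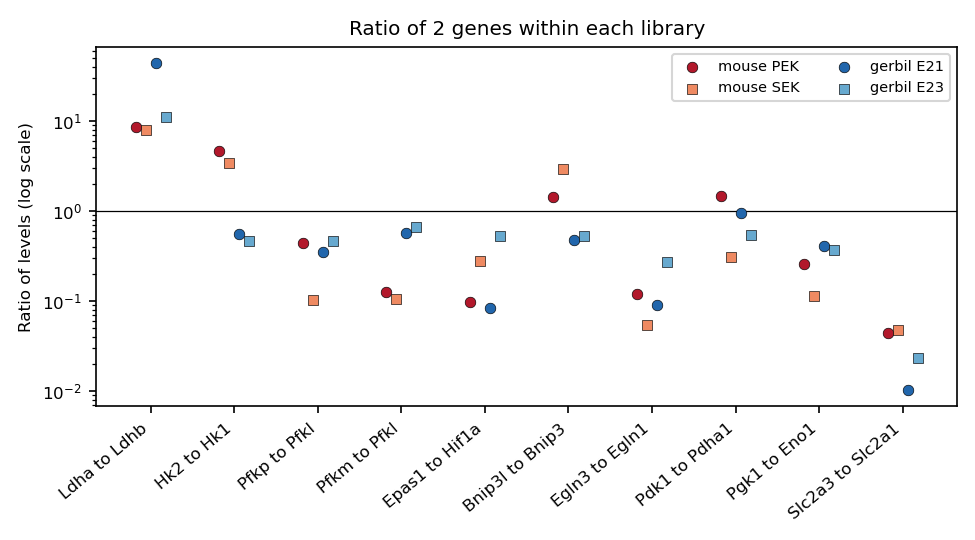
Ratio of paired genes within each library on the per-length level scale (log axis; colours as for the levels), which does not depend on how the 2 tables were scaled to each other. Hk2 to Hk1 lies above 1 in both mouse libraries and below 1 in both gerbil libraries, and Pfkm to Pfkl is higher in both gerbil libraries than in both mouse libraries.

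Aldolase A shows what a row name can do. The rows named Aldoa had levels of 2627 and 1536 in mouse (chr7:126795232-126809108) and of 54.5 and 36.7 in gerbil, a difference of -5.03 ± 0.55 that was called higher in mouse under all 10 alternatives. A second gerbil row without a symbol, described as aldolase, fructose-bisphosphate A, lies on the same scaffold (NHTI01000162.1, from 753100 to 755881; the named row spans 758683 to 766267, as the gerbil table gives them). That row had levels of 1859 and 1488. With it in place of the named row, the difference was 0.15 ± 0.51 (-0.91 with libraries centred only) and no call was made on either scale. The Aldoa call therefore rests on which gerbil row carries the name.

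The later steps of glycolysis pay back ATP. Phosphoglycerate kinase, Pgk1 (chrX:106187100-106203699), had levels of 455 and 267 in mouse and 1186 and 888 in gerbil. Its difference of 1.98 ± 0.52 was called higher in gerbil with the length trend removed, but not with libraries centred only (0.92), with neither step or with a GC trend removed. Pyruvate kinase, Pkm, which makes pyruvate, was the most abundant of the 24, at 3491 and 2629 in mouse and 1991 and 1298 in gerbil. Among the 10158 genes it ranked 13 in PEK, 26 in SEK, 36 in E21 and 62 in E23. Its mouse libraries lay above its gerbil libraries without the 2-fold gap (-1.19 ± 0.37), and it was called higher in mouse with libraries centred only (-1.55), without SEK (-1.45) and without E21 (-1.46).

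The enzymes that the symbol rule missed were abundant too. By description, triosephosphate isomerase Tpi1 had levels of 1978 and 1569 in mouse and 1354 and 1031 in gerbil, and enolase Eno1 had 1769 and 2348 in mouse and 2924 and 2431 in gerbil. With the length trend removed, both differences were small beside their errors, at -0.06 ± 0.34 and 0.15 ± 0.22. With libraries centred only, they were -1.21 for Tpi1 and -0.25 for Eno1, and neither was called. Gapdh, at 3097 and 2320 at its main mouse locus, and Pgam1, at 1476 and 1022, had no gerbil row by name or description among the rows used here and were not compared. Against Eno1, Pgk1 stood at 0.257 and 0.114 in mouse and at 0.406 and 0.365 in gerbil.

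Pyruvate is reduced to lactate by lactate dehydrogenase, whose A subunit favours that direction. Ldha, matched by description, had levels of 3562 and 3226 in mouse and 2103 and 1374 in gerbil, with a difference of -0.67 ± 0.35 that was not called. Ldhb, summed over 2 gerbil rows, had 414 and 404 in mouse and 48.3 and 126 in gerbil (-1.36 ± 0.70, not called). Ldha exceeded Ldhb in every library, by ratios of 8.61 and 7.99 in mouse and 43.5 and 10.9 in gerbil. With the length trend removed the ratios were 10.3 in PEK, 10.8 in SEK, 33.4 in E21 and 8.67 in E23. On that scale E23 lay below both mouse libraries, so the species overlapped. With libraries centred only, both would be called higher in mouse (-1.63 and -3.01).

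Pyruvate dehydrogenase kinase Pdk1 (chr2:71873224-71903858) limits the oxidation of pyruvate by switching off pyruvate dehydrogenase. It had levels of 129 in PEK, 23.7 in SEK, 246 in E21 and 171 in E23, and the species overlapped once the length trend was removed (0.40 ± 0.94). Relative to its target subunit Pdha1, the ratio was 1.47 in PEK, 0.307 in SEK, 0.944 in E21 and 0.545 in E23. On this scale the lowest and the highest of the 4 ratios were both in mouse. With the length trend removed the ratios were 1.73, 0.522, 0.667 and 0.382, and the lowest was in gerbil E23.

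Among the transcription factors, Hif1a had levels of 54.8 and 34.9 in mouse, summed over 2 assembled loci, and 196 and 252 in gerbil. Its difference of 0.61 ± 0.19 missed the call, and it would be called higher in gerbil with libraries centred only (1.69). Arnt, the partner of both alpha subunits, had 25.7 and 11.9 in mouse and 70.7 and 75.6 in gerbil (0.56 ± 0.27, not called). Epas1, the alpha subunit best known from endothelium (chr17:86753907-86833412), was set apart by a single library, with levels of 5.38 in PEK, 9.76 in SEK, 16.3 in E21 and 134 in E23.

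Endothelial markers were highest in that gerbil library for 4 of the 5 matched genes. Pecam1 had levels of 2.59, 4.63, 0.302 and 24.1 in PEK, SEK, E21 and E23, Cdh5 had 0.878, 2.16, 0.528 and 28.4, and Kdr had 0.410, 1.72, 0.302 and 32.3. Emcn was listed at 0 in E21 and had 18.4 in E23, while Egfl7 was highest in mouse SEK at 189, beside 53.4 in E23. The part of these markers in the Epas1 values was not tested. The ratio of Epas1 to Hif1a was 0.0982 and 0.280 in mouse and 0.0830 and 0.531 in gerbil, and the difference of Epas1 between species was 0.84 ± 1.65.

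The oxygen sensing arm gave no call. Vhl, the recognition subunit of the ligase that removes the alpha subunits, had levels of 29.5 and 30.4 in mouse and 65.1 and 76.3 in gerbil (0.75 ± 0.16). Egln1, the main prolyl hydroxylase, had 130.1 and 67.6 in mouse and 90.8 and 63.0 in gerbil (-1.12 ± 0.37). Egln3, a hydroxylase that is itself induced by hypoxia, was lower than Egln1 throughout, at 15.5 and 3.66 in mouse and 8.22 and 17.1 in gerbil, with ratios to Egln1 of 0.119, 0.0542, 0.0905 and 0.271.

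Of the 8 hypoxia target genes compared, 1 was called higher in each species (12.5%, beside 14.6% of all genes for mouse and 13.4% for gerbil). Bnip3l, a mitophagy receptor (chr14:66985239-67008877), had levels of 723 and 496 in mouse and 213 and 241 in gerbil, a difference of -1.91 ± 0.25. The call held under all 10 alternatives, and both mouse libraries lay above both gerbil libraries on every scale. Its paralog Bnip3 had 509 and 172 in mouse and 443 and 453 in gerbil, so the ratio of Bnip3l to Bnip3 was 1.42 and 2.89 in mouse and 0.480 and 0.533 in gerbil. Bnip3l was thus the more abundant of the pair in mouse and the less abundant in gerbil.

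Car9, a carbonic anhydrase of the cell surface (chr4:43506966-43513729), was called higher in gerbil at low levels, of 0.10 and 1.25 in mouse and 9.35 and 4.93 in gerbil (2.51 ± 0.57). Its mean level was 0.676 in mouse and 7.14 in gerbil, so it passed the filter on low values only through gerbil. Car9 was not called with libraries centred only (1.68), and it was not kept with a level of at least 10 in each species. Vegfa, the vessel growth factor, had 216 and 47.3 in mouse and 175 and 179.7 in gerbil, with a difference of -0.01 ± 0.91. Its mouse libraries lay on either side of its gerbil libraries.

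The other targets were not called. Ankrd37, an ankyrin repeat protein, had levels of 124 and 64.7 in mouse and 66.0 and 68.5 in gerbil (0.84 ± 0.63), and P4ha1, a collagen prolyl hydroxylase, had 93.0 and 37.9 in mouse and 136 and 206 in gerbil (0.43 ± 0.54). For Ankrd37 the sign depended on the length step, with a difference of -1.04 when libraries were centred only. Ndrg1, a stress response gene, had 87.7, 14.6, 48.6 and 112 in PEK, SEK, E21 and E23 (0.55 ± 1.36). Mxi1, a repressor of Myc target genes, had 41.4 and 31.9 in mouse and 114 and 133 in gerbil (-0.13 ± 0.20; 1.10 with libraries centred only). Higd1a, a mitochondrial protein matched by description, had 305 and 276 in mouse and 148 and 216 in gerbil (-1.22 ± 0.30, not called; called higher in mouse at -1.33 with libraries centred only).

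A contrast whose share of these genes exceeded the background lay within mouse. Between PEK and SEK, 9 of the 24 (37.5%) were at least 2-fold lower in SEK, beside 8.44% of all genes kept: Slc2a1, Gpi1, Pfkp, Pdk1, Egln3, Vegfa, Bnip3, Ankrd37 and Ndrg1. Only Epas1 (4.17%) was at least 2-fold higher in SEK, beside 7.44% of all genes, and it fell short of 2-fold with libraries centred only (0.95) and with neither step (0.75). The median difference of the 24, SEK minus PEK, was -0.72, beside -0.03 over all genes. These are single libraries, so the difference has no replicate check and describes those libraries.

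The 9 genes span uptake, glycolysis, pyruvate control, oxygen sensing and hypoxia targets. The ratio of the level in PEK to that in SEK was 6.0 for Ndrg1, 5.46 for Pdk1, 4.88 for Pfkp, 4.56 for Vegfa and 4.22 for Egln3. It was 2.99 for Slc2a1, 2.96 for Bnip3, 2.29 for Gpi1 and 1.92 for Ankrd37, which passed 2-fold with the length trend removed (-1.25 in log2). Aldoa (-0.96), Pgk1 (-0.95), P4ha1 (-0.87) and, upwards, Car9 (0.81) lay just inside the 2-fold line. The 10 other members ranged from -0.56 for Egln1 to 0.37 for Hk1, with Hk2 at -0.02 and Bnip3l at -0.36. Some of these values depended on the length step. Hk2 stood at -0.43 with libraries centred only and at -0.62 with neither step, and Arnt at -0.85 and -1.05. By description Ldha differed by -0.34, Tpi1 by -0.57, Ldhb by -0.41 and Higd1a by -0.10. Eno1 went the other way, at 0.35. Hif1a, summed over its mouse loci, differed by 0.01 with the length trend removed, while its levels were 54.8 in PEK and 34.9 in SEK.

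In gerbil none of those 9 genes was 2-fold lower in E23. None of the 24 was, beside 3.68% of all genes. Epas1 (2.99), Ndrg1 (1.22) and Egln3 (1.05) were 2-fold higher in E23, 12.5% beside 6.02% of all genes. Slc2a1 differed by 0.12, Vegfa by 0.11, Bnip3 by 0.03 and Pfkp by 0.01. For Slc2a1, Vegfa and Pfkp the mouse libraries lay on both sides of the gerbil libraries. The difference between the contrasts of the 2 species was not tested.

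Markers of other tissues also differed between PEK and SEK. Red blood cell markers summed to 144 in PEK and 26.7 in SEK, carried by the embryonic globins Hbb-y (103 and 3.38) and Hba-x (33.6 and 2.75), while Alas2 (7.28 and 20.01) and Slc4a1 (0.168 and 0.534) were higher in SEK. Skeletal muscle markers summed to 130.2 and 442 and endothelial markers to 111 and 202, and epithelial markers to 6261 and 7899. The mesenchymal markers summed to 663 and 594 but split: Pdgfrb (49.7 and 6.04), Prrx1 (28.3 and 4.06), Twist1 (183 and 84.6) and Vim (303 and 172) were lower in SEK, and Col1a1 (48.3 and 204) and Col3a1 (42.4 and 114) were higher, with Pdgfra at 7.95 and 8.48. The part of these tissues in the PEK to SEK contrast was not tested, and the 2 libraries may also differ in stage or region, which cannot be told apart from the contrast.

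**Figure D4:**
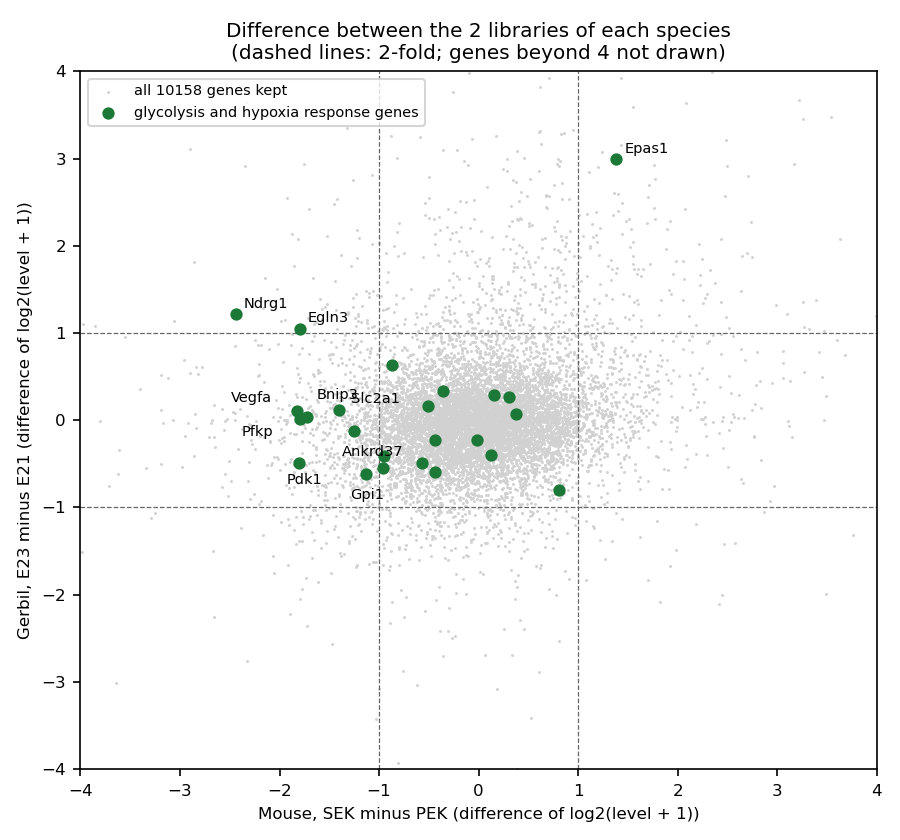
Difference between the 2 libraries of each species in log2(level + 1) with the length trend removed: SEK minus PEK in mouse (horizontal) against E23 minus E21 in gerbil (vertical), for all 10158 genes (grey) and the 24 glycolysis and hypoxia genes (green). Of the 24, 9 lie to the left of the 2-fold line in mouse and none lies below it in gerbil.

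The hypoxia-inducible factors bind DNA at a short core, ACGTG or GCGTG, known as the hypoxia response element. To show what lies in front of the genes that were lower in SEK, the 250 bases before the RefSeq transcription start are given for 5 of them (mouse GRCm38.p6, gene strand, 5′ to 3′). Capitals mark each match to the core on either strand (CACGT and CACGC are the cores of the other strand), and neighbouring matches may overlap. The windows lie at chr4:119108495-119108744 for Slc2a1 on the plus strand, chr13:6648772-6649021 for Pfkp on the minus strand and chr2:71872974-71873223 for Pdk1 on the plus strand. Those of Bnip3 (chr7:138909507-138909756) and Ankrd37 (chr8:45999851-46000100) are on the minus strand.
Slc2a1: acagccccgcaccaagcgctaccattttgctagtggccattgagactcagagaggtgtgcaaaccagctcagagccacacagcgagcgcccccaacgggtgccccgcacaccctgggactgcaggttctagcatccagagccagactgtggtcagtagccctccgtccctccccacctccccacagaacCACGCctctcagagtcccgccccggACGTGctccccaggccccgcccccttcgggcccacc
Pfkp: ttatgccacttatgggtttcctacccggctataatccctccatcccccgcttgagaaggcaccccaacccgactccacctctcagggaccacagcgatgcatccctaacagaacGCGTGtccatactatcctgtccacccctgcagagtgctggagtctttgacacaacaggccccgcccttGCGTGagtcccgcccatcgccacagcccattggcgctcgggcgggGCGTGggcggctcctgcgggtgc
Pdk1: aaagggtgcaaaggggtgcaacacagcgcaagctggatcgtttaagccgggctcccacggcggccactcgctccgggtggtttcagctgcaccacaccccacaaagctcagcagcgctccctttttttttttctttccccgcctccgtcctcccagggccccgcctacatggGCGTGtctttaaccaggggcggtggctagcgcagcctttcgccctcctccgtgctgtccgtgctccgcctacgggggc
Bnip3: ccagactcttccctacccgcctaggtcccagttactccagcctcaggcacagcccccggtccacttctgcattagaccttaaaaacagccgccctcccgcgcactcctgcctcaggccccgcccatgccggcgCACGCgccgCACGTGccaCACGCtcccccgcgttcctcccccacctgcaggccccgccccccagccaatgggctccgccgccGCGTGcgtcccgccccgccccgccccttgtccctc
Ankrd37: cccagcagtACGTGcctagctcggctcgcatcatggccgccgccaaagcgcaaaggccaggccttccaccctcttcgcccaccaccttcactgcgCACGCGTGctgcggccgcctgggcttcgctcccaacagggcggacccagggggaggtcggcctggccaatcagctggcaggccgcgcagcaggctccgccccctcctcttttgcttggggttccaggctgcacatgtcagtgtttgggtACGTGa

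The windows hold 2 matches in Slc2a1, 3 in Pfkp, 1 in Pdk1, 5 in Bnip3 and 4 in Ankrd37, and those of Vegfa and Gpi1 hold none. The core is common. It was present in 38.6% of 32851 RefSeq windows of this length and in 54.9% of the 10338 windows of the genes kept here. Among the 32 listed genes, 21 of the 29 with a window in the table held it (72.4%). It was found in 6 of the 8 windows (75.0%) of members lower in SEK and in 8 of the 13 (61.5%) of the other members by the rule. The windows of Epas1, Bnip3l and Ndrg1 were not analysed here. A match describes these letters only and is not evidence of binding.

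The rest of glycolysis and of the hypoxia response was read from wider gene lists, which were written with earlier results of these data known. Of 17 other glycolysis and glucose uptake genes kept (24 listed), 4 were called higher in each species (23.5%, beside 14.6% of all genes for mouse and 13.4% for gerbil), with a median difference of -0.32. The muscle and fat transporter Slc2a4 was higher in mouse, with levels of 25.3 and 11.2 against 1.96 and 1.61 in gerbil (-3.15 ± 0.49). Higher in gerbil were Fbp1, which runs the phosphofructokinase step backwards, with 1.72 and 0.428 in mouse and 32.4 and 23.9 in gerbil (4.73 ± 0.71), and the muscle enolase Eno3, with 21.7 and 39.2 against 137 and 106 (2.71 ± 0.30). Between PEK and SEK, 5 of the 17 were 2-fold lower in SEK (Slc2a3, Aldoc, Eno2, Pfkfb3 and Fbp1; 29.4% beside 8.44% of all genes). Fbp1 counts among them at low mouse levels, of 1.72 in PEK and 0.428 in SEK. Another 3 were 2-fold higher in SEK (Bpgm at 1.46, Pgam2 at 1.75 and Tigar at 2.62; 17.6% beside 7.44%).

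Of 21 genes for the fate of pyruvate and lactate, 2 were called higher in mouse (9.52%, beside 14.6% of all genes) and 3 in gerbil (14.3%, beside 13.4%), with a median of 0.06. Slc16a3, the lactate exporter of glycolytic cells, had levels of 327 and 161 in mouse and 52.5 and 46.5 in gerbil (-3.38 ± 0.26), and Pdk4 was called higher in mouse at low levels (-1.55 ± 0.25). In gerbil, Pcx, which turns pyruvate into oxaloacetate, was higher with 130.1 and 48.8 against 5.25 and 6.79 in mouse (2.38 ± 0.79). Pdha1, the catalytic subunit of pyruvate dehydrogenase, had 87.7 and 77.2 in mouse and 260.4 and 314 in gerbil (1.32 ± 0.16). Between PEK and SEK, 1 of the 21 was 2-fold lower in SEK (Ldhd; 4.76% beside 8.44% of all genes). The 4 that were higher in SEK (Slc16a7, Pdhx, Me1 and Me2; 19.0% beside 7.44%) differed in the direction opposite to that of the 9 members.

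In the pentose phosphate list, which branches from glucose 6-phosphate, 1 of 5 genes kept was called, Rpia, higher in gerbil (2.04 ± 0.53). That is 20% of the list, beside 13.4% of all genes. In the oxygen sensing list, 1 of 10 was called higher in mouse (10%, beside 14.6% of all genes). It was Cited2, a hypoxia-induced brake on the factors (-1.79 ± 0.52). None of those 10 differed 2-fold between PEK and SEK, beside 8.44% of all genes lower and 7.44% higher in SEK.

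Of 39 other hypoxia response genes kept (54 listed), 5 were called higher in mouse (12.8%, beside 14.6% of all genes) and 3 in gerbil (7.69%, beside 13.4%), with a median of -0.17. Angptl4, a regulator of lipoprotein lipase, had levels of 43.8 and 12.5 in mouse and 1.43 and 1.53 in gerbil (-3.83 ± 0.77), and the phosphatase Dusp1 was also higher in mouse (-2.30 ± 0.54). Pygl, the glycogen phosphorylase of liver, had 3.99 and 3.91 in mouse and 164 and 112 in gerbil (4.21 ± 0.22), and Anln, a cytokinesis protein, had 8.61 and 7.69 against 125 and 103 (2.37 ± 0.20).

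The wider hypoxia list also had more genes lower in SEK than the background. Of the 39, 11 (28.2%) were 2-fold lower in SEK, beside 8.44% of all genes. Only 1 (2.56%) was higher, beside 7.44% of all genes: Kdr, at the low levels of 0.410 in PEK and 1.72 in SEK. The 11 lower genes were Cxcr4 (-2.86), Kdm3a (-1.85), Stc2 (-1.85), Plod2 (-1.63), Igfbp3 (-1.52), Angptl4 (-1.52), Wsb1 (-1.50), Bhlhe41 (-1.48), Bhlhe40 (-1.28), Ddit4 (-1.18) and Mif (-1.04). In gerbil, 8 of the 39 (20.5%) were 2-fold higher in E23, beside 6.02% of all genes, and none was lower, beside 3.68% of all genes. These were Kdr (4.73), Angpt2 (2.26), Igfbp3 (2.12), Lox (1.56), Fos (1.29), Plod2 (1.13), Rab20 (1.07) and Rora (1.04). Of these, Kdr (0.302), Angpt2 (0.452), Fos (2.04), Rab20 (2.34) and Lox (4.15) had low levels in E21. Kdr and Angpt2 are genes of vessels. The endothelial markers, which include Kdr, summed to 34.8 in E21 and 157 in E23. Mesenchymal markers summed to 1387 in E21 and 2347 in E23, and immune markers to 6.64 and 30.4. Sums of muscle, red blood cell and nerve markers were also higher in E23. Epithelial markers (9741 and 8691) and cartilage and bone markers (862 and 656) were lower there. The part of endothelium and of these other tissues in the higher values was not tested.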

How the data were processed

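RNA-seq tables of 2 mouse and 2 gerbil libraries were used. For mouse, the authors deposited FPKM of 27632 assembled loci. For gerbil, the authors deposited TPM of 25745 genes, and 4 other columns of per-sample values there were not used. Per the submitters' processing notes, cutadapt 2.8, STAR 2.7.1a, RSEM 1.3.1 and the builds GRCm38 and mm10 were involved. No source used here names the gerbil build. Depth is unknown for mouse and was not analysed here for gerbil.

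Genes were matched by symbol (once in each table, case ignored; LOC, Gm and Rik names left out). Levels were rescaled to 1000000 over the 13321 matched genes and taken as log2(level + 1), which understates differences of low genes. The filter kept those with a mouse transcript length (GENCODE M21) whose level averaged 1 or more over the libraries. Gerbil lengths were not available, so the mouse length of a gene was used for both species. In each library a running median of the deviations over 40 bins of length was subtracted. Alternatives were another pseudocount, 2 other filters, centring only, neither step, a GC trend, and leaving out each library. Named genes are all 32 listed genes and the 2 called genes per direction with the largest gap in each wider list, of which 1 is not reported here. Genes that differed between the libraries of a species, and the endothelial markers and promoters shown, were chosen after their values were seen. The members and lists were chosen with earlier results of these data known. Calculations used numpy 2.4.6 and pandas 2.3.3 in python 3.11.15, and the steps were tested on simulated data.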

Additional observations from a re-analysis of the deposited data

How the results depend on the processing

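The counts of the 24 genes called between species stayed within 1.5 times the reported counts under most settings. The exception among settings that keep all libraries was levels neither centred nor corrected, which gave 6 called higher in gerbil in place of 3, where 29.7% of all genes were so called and the median over all genes shifted to 0.62. The calls of Pfkm, Bnip3l and the named Aldoa row held under all 10 alternatives. Those of Hk2 and Car9 held under 8 and that of Pgk1 under 7, and Hk1 was called higher in gerbil under 7. Car9 was not kept with a level of at least 10 in each species. Leaving out 1 library gave 3 to 6 genes called higher in mouse (6 without SEK and 6 without E21) and 3 to 7 in gerbil (7 without PEK and 5 without E21), and a median difference of -0.60 to 0.78. Under these settings 18.5% to 20.2% of all genes were called higher in mouse and 16.6% to 19.2% in gerbil. A lone library has no spread of its own, and the call then rests on fewer comparisons. Alternatives chosen after seeing the data were 2 other sets. The set that also held the members matched by description and Hif1a had a median of 0.15, and the set without Aldoa had 0.40.

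For the contrast of SEK with PEK, 8 of the 9 lower genes stayed at least 2-fold lower under every setting that kept them, and Ankrd37 under 4 of 6. With a level of at least 10 in each species, 8 of 21 members were lower beside 5.47% of all genes. With libraries centred only, 9 were lower beside 11.7%, and with neither step 10 beside 17.1%. The count of members higher in SEK was 2 with a pseudocount of 0.1 and 0 with a level of at least 10, and the count higher in E23 was then 1. In E23, Egln3 stayed 2-fold higher under 2 of 5 settings.

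For the 92 genes of the wider lists together, the calls were 12 in mouse and 11 in gerbil with a median of 0.01. Of all genes, 14.6% and 13.4% were so called. A level of at least 10 gave 6 and 6 of 65 genes, beside 11.3% and 10.1% of all genes. Levels neither centred nor corrected gave 21 of 92 in gerbil, beside 29.7% of all genes. The median of the lists was then 0.72, beside 0.62 over all genes. It was 0.21 with no filter and -0.16 with the GC trend removed. Leaving out 1 library gave 14 to 18 calls in mouse, 10 to 19 in gerbil (19 without PEK and 17 without E21) and a median of -0.05 to 0.10. Of all genes, 18.5% to 20.2% were then called higher in mouse and 16.6% to 19.2% in gerbil. No result changed its call to the opposite direction under any setting. No paired analysis was possible because the columns carry no replicate number.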
